A study of Rattus norvegicus with 2 samples.

Results

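Genes of the vascular endothelium, the cell layer that lines blood vessels, were followed in rat adductor muscle of the inner thigh after fine needle stimulation. The set holds 40 genes for endothelial identity and adhesion, chosen by name and matched through the platform annotation to probe sets with a single gene symbol, and leaves out the VEGF and angiopoietin receptors. Of the 40, 38 had such a probe set, 61 probe sets in all, out of 9956 genes measured in the series. Cdh5 and Robo4 were not matched and are not analysed here. The 2 samples came from male Lewis rats, an inbred strain, of 275 g body weight. The stimulated sample was adductor muscle of the left hindlimb, pricked 100 times with a steel needle 0.14 mm wide over a square of 10 mm by 10 mm and taken 24 hours later. The control sample was adductor muscle of the right hindlimb, which was left untreated. Body side and stimulation cannot be told apart, and neither the number of rats nor the pairing of the samples within an animal is stated in the labels. Each limb had 1 array, so the differences carry no test and hold for this pair of samples alone.

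Endothelial cells hold together through junction proteins, keep blood fluid with anticoagulant surface proteins, pass solutes through caveolae and fenestrae, and display selectins and immunoglobulin-type ligands that slow and arrest leukocytes. Their identity depends on transcription factors of the ETS and SOXF families. In skeletal muscle they form a dense capillary bed around the fibres, and the selectins mark mainly the small veins. Several of the 40 genes are also expressed outside endothelium: Lyve1 in lymphatic vessels and some tissue macrophages, Selp, Vwf and Pecam1 in platelets, Aqp1 in red cells, Cav1 in adipocytes, and Fli1 and Ets1 in blood cells.

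Values are linear MAS5 signals, 1 per probe set and array. MAS5 is the array maker's algorithm that combines the probes of a probe set into 1 signal. A floor of 19.8, the median of all signals on both arrays, was set under low signals. This floor was reached by 48.9% of probe sets on the stimulated array and by 51.1% on the control array. Probe sets of the same gene gave log2 ratios with an SD of 0.31 for a single probe set over 2174 genes, or 1.24-fold, which covers probe-level error and leaves out variation between limbs and animals. The 18 bacterial and phage spike-ins added at hybridisation all gave less signal on the stimulated array (median log2 ratio -0.38). Scaling to them moved the median of all genes by 0.37, from 0.019 to 0.39, so "higher" and "lower" hold for the deposited scaling, in which the median gene lay close to 0. Counts below are taken against 0. Taken against the median gene instead, 37 of the 38 endothelial genes lay below it, 5 by 2-fold or more and 18 by 1.5-fold or more. Muscle identity was plain on both arrays, where the fibre actin gene Acta1 reached 12095 in the stimulated limb and 16712 in the control limb. Beta-actin probe sets at the 3' and 5' ends, whose ratio grows as RNA degrades, stood at 2.43 to 1 in the stimulated sample and 2.26 to 1 in the control sample.

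Most endothelial genes had a lower signal in the stimulated limb, by modest amounts, and a small group was lower by more. Of the 38 genes, 35 had a log2 ratio of stimulated over control below 0, against 47.7% of all 9956 genes. Over the 8863 genes that fell in the same range of mean log2 signal as the 38, 47.1% lay below 0 and the share lower by 1.5-fold or more was 7.68%. The median of the 38 was -0.50, against 0.019 for all genes. Procr, Plvap, Sox18, Ecscr and Selp, 5 of the 38, were at least 2-fold lower, against 1.43% of all genes, and 0 were at least 2-fold higher, also against 1.43% of all genes. At the milder threshold of 1.5-fold, 16 were lower, against 6.94% of all genes, and 0 were higher, against 6.59%. In all, 25 of the 38 were lower by the probe set SD or more, against 18% of all genes, 13 lay within it and 0 were higher by as much, against 19.5% of all genes.

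The floor has a part in these counts. The representing probe sets of Selp, Sele, Calcrl and Arhgef15 reached the floor only in the control limb, so their ratios could only come out lower. Among the 34 genes at or above the floor on both arrays, 31 lay below 0, 4 of them by 2-fold or more and 13 by 1.5-fold or more, with a median of -0.47. Over the 8995 genes of the whole array that met the same condition, 46.4% lay below 0, 6.18% were at least 1.5-fold lower and the median was 0.029. With scaling to the spike-ins, 23 of the 38 genes lay below 0, against 15.1% of all genes, with a median of -0.094. Under it, 3 (Procr, Plvap and Sox18) were at least 2-fold lower. Relative to the median gene of that scaling, 35 lay below, the median was -0.48 and 5 were at least 2-fold below. Over all genes that scaling gave 535 at least 2-fold higher and 44 lower, where the deposited scaling gave 142 of each.

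In bulk muscle, fewer endothelial cells and less RNA per endothelial cell cannot be told apart. The log2 ratios of the 38 genes differed among themselves with an SD of 0.47, against 0.31 for probe-level error and 0.43 among all genes. They ran from -1.90 for Procr to 0.062 for Cldn5, with quartiles of -0.67 and -0.19. The ratio bore little relation to the mean log2 signal of the gene, with a Pearson r of 0.036 and a Spearman rho of 0.028 across the 38 genes, which share both arrays and are not independent.

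**Figure D1:**
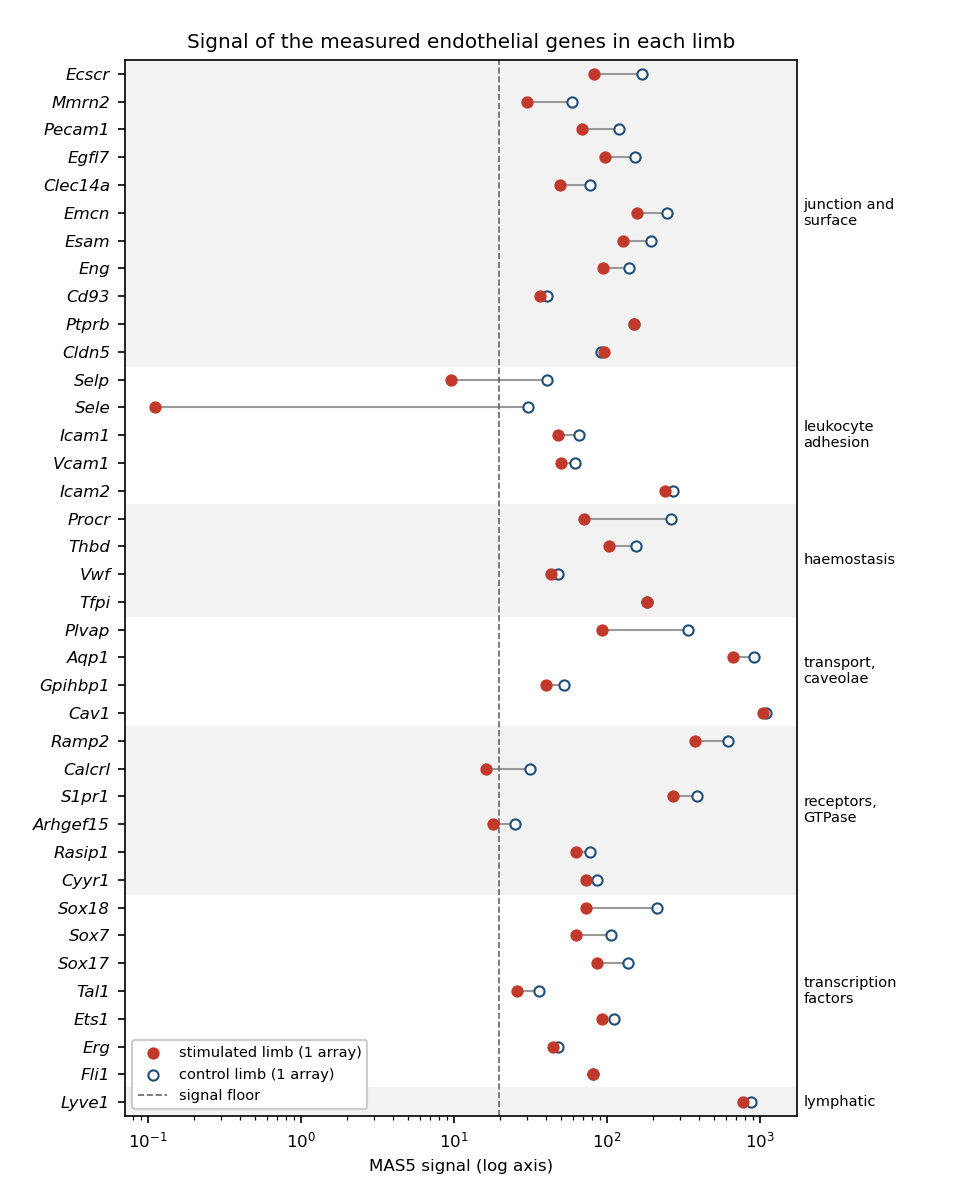
MAS5 signal of each of the 38 measured endothelial genes in the stimulated limb (filled red) and the control limb (open blue), 1 array each, on a log axis, grouped by role and ordered by log2 ratio within each role. Procr, Plvap and Sox18 show the widest gaps among genes above the floor of 19.8 (dashed line) on both arrays, Selp, Sele, Calcrl and Arhgef15 lie below it in the stimulated limb, and the points of Fli1, Tfpi and Ptprb coincide.

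The protein C system at the vessel wall held the gene with the lowest ratio of the set. Procr (Entrez gene 362248) encodes the endothelial protein C receptor, which presents protein C for activation. Its signal of 70.2 in the stimulated limb stood against 262 in the control limb, 3.74-fold lower, and only 7 of the 9956 genes had a lower ratio. Thbd encodes thrombomodulin, the thrombin receptor that activates protein C beside Procr. Thbd had a signal of 103 in the stimulated and 155 in the control limb, a log2 ratio of -0.58. Both further Thbd probe sets were lower as well, at log2 ratios of -0.92 and, as a bound with the stimulated signal below the floor, -0.85. The other haemostatic genes differed little. Von Willebrand factor, Vwf, which tethers platelets, had 43.1 against 48.1 in the control limb. Tfpi, the inhibitor of tissue factor, had signals of 183 in both limbs, and its second probe set was higher at 0.35. By the representing probe sets of these 4 genes, the pair that acts on protein C was thus lower beyond the probe set SD. The other pair lay within it, although the second Tfpi probe set was higher by more than that SD.

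Plvap (Entrez gene 56765) encodes the protein of the diaphragms that span endothelial fenestrae and caveolae. Its signal reached 93.0 in the stimulated limb, against 336 in the control limb, 3.62-fold lower, with 9 of the 9956 genes at a lower ratio. Its neighbours in transport function were far closer to 0. The water channel gene Aqp1 had 667 in the stimulated and 912 in the control limb, 1.37-fold lower, with a second probe set at -0.33. Gpihbp1, which carries lipoprotein lipase to the capillary lumen, had 39.9 against 52.3 in the control limb, 1.31-fold lower. Cav1, the coat protein of caveolae, had 1049 against 1095 in the control limb, and its other probe sets gave -0.51 and 0.012. The coat and the diaphragm of the same structure therefore did not differ by a like amount on these arrays.

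Because Procr and Plvap had the lowest ratios, their promoter windows are shown, from 250 bases before to 50 bases after the RefSeq gene start in build GRCr8, with capitals for matches on either strand to the ETS motifs CCGGAAG and CAGGAAG, the KLF motif CCCCACCC, the NF-kappaB consensus and TATAAA. The Procr window lies at chr3:164714477-164714776 on the plus strand, and the Plvap window at chr16:18231230-18231529 on the minus strand.
Procr: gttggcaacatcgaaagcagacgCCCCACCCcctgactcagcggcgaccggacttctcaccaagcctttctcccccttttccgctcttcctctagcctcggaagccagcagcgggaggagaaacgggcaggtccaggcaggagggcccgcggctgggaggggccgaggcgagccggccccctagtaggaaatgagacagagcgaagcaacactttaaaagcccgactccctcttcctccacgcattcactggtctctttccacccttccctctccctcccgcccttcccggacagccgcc
Plvap: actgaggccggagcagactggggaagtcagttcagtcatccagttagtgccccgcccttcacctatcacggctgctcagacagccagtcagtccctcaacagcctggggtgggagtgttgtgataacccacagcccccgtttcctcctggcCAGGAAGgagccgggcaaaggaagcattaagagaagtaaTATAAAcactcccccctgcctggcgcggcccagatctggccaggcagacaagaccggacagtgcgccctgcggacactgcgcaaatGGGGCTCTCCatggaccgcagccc

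The Procr window held 1 match, to the KLF motif, which began at position -227 from the start base. The Plvap window held the ETS motif CAGGAAG at -99, TATAAA at -60 and a match to the NF-kappaB consensus 26 bases after the start base. These windows share no marked motif, although their genes had nearly the same ratio. A window was at hand for 21 of the measured genes of the set and for 8349 measured genes in all. CAGGAAG was found in 5 of the 21 (Emcn, Plvap, Egfl7, Erg and Lyve1) and in 12.7% of the 8349, and CCGGAAG in 0 of the 21 and in 18.5%. CCCCACCC was found in 4 of the 21 (Procr, Eng, Aqp1 and Cyyr1) and in 11.6% of the 8349. The median log2 ratio was -0.52 for these 4 genes and -0.51 for the 17 without the motif. The SOX motif AACAAT was found in 4 of the 21 and in 5.23% of the 8349. A match describes the letters of a window and is neither a binding site nor a cause.

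The 5 genes for leukocyte adhesion all had a log2 ratio below 0, against 47.7% of all genes. The selectins among them reached the floor only in the control limb, so their ratios could only come out lower. P-selectin, Selp (Entrez gene 25651), and E-selectin, Sele, capture rolling leukocytes on activated endothelium. Selp had 9.61 in the stimulated limb, below the floor, against 40.8 in the control limb, at least 2.06-fold lower. Its second probe set was below the floor on both arrays. Sele had 0.112 in the stimulated and 30.4 in the control limb, at least 1.54-fold lower. Signals under the floor have no reliable order, and the fold of both selectins depends on it. The selectins were thus measured in the control limb and not above the floor in the stimulated limb.

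The ligands of leukocyte integrins were closer to 0. Icam1, which binds integrins of leukocytes for firm arrest, had 47.9 in the stimulated and 65.2 in the control limb, 1.36-fold lower. Vcam1, the ligand of the integrin VLA-4, had 49.7 against 61.5 in the control limb, 1.24-fold lower. Icam2, which resting endothelium carries, had 238 against 269 in the control limb, 1.13-fold lower, with a second probe set at least 1.88-fold lower. By their representing probe sets, Icam1 lay beyond the probe set SD, and Vcam1 and Icam2 within it.

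Cytokines induce Icam1 and Vcam1 through NF-kappaB, and their promoter windows are shown with the same marks for that reason. The Icam1 window lies at chr8:27829595-27829894 on the plus strand, and the Vcam1 window at chr2:206742734-206743033 on the minus strand of GRCr8.
Icam1: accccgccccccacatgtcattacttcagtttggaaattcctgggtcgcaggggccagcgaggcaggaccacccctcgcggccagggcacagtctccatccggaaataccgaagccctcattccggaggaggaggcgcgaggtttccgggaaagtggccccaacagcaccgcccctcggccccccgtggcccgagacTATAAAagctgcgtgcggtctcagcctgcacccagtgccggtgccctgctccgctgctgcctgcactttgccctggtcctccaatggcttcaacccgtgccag
Vcam1: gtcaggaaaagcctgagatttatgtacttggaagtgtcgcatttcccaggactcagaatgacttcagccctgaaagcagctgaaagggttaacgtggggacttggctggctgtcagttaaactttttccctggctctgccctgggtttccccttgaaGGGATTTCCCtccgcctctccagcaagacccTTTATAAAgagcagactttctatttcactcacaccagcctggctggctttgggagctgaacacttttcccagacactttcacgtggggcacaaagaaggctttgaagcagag

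The Vcam1 window held GGGATTTCCC, a match to the NF-kappaB consensus, at position -93, and TATAAA at -60, where a match on the other strand overlaps it. The Icam1 window held TATAAA at -53 and no match to the NF-kappaB consensus as searched. That search took exact matches to GGGRNNYYCC, with R for A or G, Y for C or T and N for any base. Close stretches such as tggaaattcc in the Icam1 window and gggtttcccc in the Vcam1 window thus stayed unmarked. The lack of a mark does not show the lack of a site. That consensus was found in 3 of the 21 windows of the set (Plvap, Vcam1 and Eng) and in 9.57% of the 8349. TATAAA was found in 6 of the 21 (Plvap, Icam1, Vcam1, Mmrn2, Aqp1 and Cav1) and in 7.01% of the 8349. The genes with TATAAA had a median log2 ratio of -0.45 and those without it one of -0.58.

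The junction and surface genes gave the largest role group, with 11 of 13 measured. Their median log2 ratio was -0.65. Of the 11, 9 lay below 0, against 47.7% of all genes, and 7 were at least 1.5-fold lower, against 6.94%. Ecscr (Entrez gene 689248), an endothelial surface protein of cell movement and survival, had 81.6 in the stimulated and 168 in the control limb, 2.06-fold lower. Mmrn2, a matrix protein that binds Clec14a and Cd93, had 30.1 against 58.8 in the control limb, 1.95-fold lower. Its binding partners had different values, since Clec14a had 49.3 against 77.8 in the control limb, 1.58-fold lower, and Cd93 had 36.5 against 40.8, 1.12-fold lower. With the floor at the 75th percentile of signals, Clec14a had a log2 ratio of -0.024, a bound set by that floor, which its stimulated signal did not reach. With no floor its log2 ratio was -0.66.

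Pecam1, the platelet and endothelial adhesion molecule CD31 at the junction, had 68.9 in the stimulated and 120 in the control limb, 1.74-fold lower. The sialomucin Emcn had 158 against 248 in the control limb, 1.57-fold lower. The junction protein Esam had 127 against 194 in the control limb, 1.53-fold lower. These defining genes of the endothelial surface differed by similar amounts. The secreted factor Egfl7 had 97.1 against 153 in the control limb, 1.58-fold lower, and its second probe set was 1.47-fold lower. Eng, the TGF-beta co-receptor endoglin, had 93.5 against 140 in the control limb, a log2 ratio of -0.58.

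Of the 11 junction and surface genes, 3 lay within the probe set SD by their representing probe sets, namely Cd93, given above, Cldn5 and Ptprb. Cldn5, the claudin of endothelial tight junctions, had 96.0 in the stimulated and 91.9 in the control limb, a log2 ratio of 0.062. Ptprb, the phosphatase VE-PTP that acts on VE-cadherin and Tie2, had 151 against 150 in the control limb, but its second probe set was 1.62-fold lower, at 45.5 against 73.6. Cldn5 had 1 probe set, so its ratio has no repeat within these arrays.

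**Figure D2:**
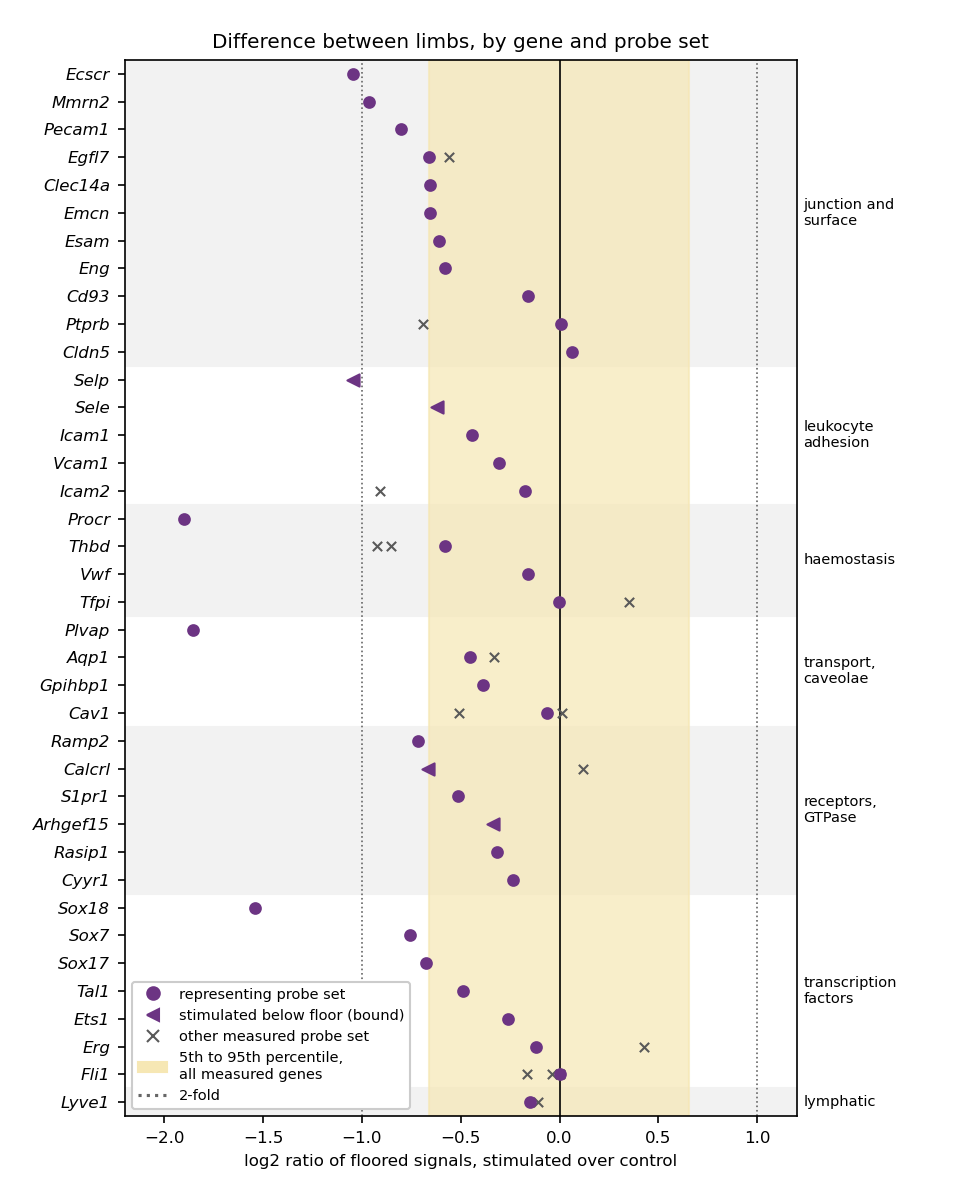
Log2 ratio of floored signals, stimulated over control, for each of the 38 endothelial genes, with circles for the probe set that represents the gene, triangles where the stimulated signal lay below the floor and the ratio is a bound, and crosses for other measured probe sets of the gene. The shaded band spans the 5th to the 95th percentile of all 9956 genes and dotted lines mark 2-fold. The points lie mostly left of 0, at a median of -0.50 with the deposited scaling and of -0.094 with scaling to the spike-ins, and 11 of the 38 are at or beyond the low edge of the band at -0.66.

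The receptors and regulators of small GTPases had a median of -0.42, with 6 of 6 measured. All lay below 0 by their representing probe set, against 47.7% of all genes. Those of Calcrl and Arhgef15 reached the floor only in the control limb and could only come out lower. Ramp2 and Calcrl encode the partner subunits of the adrenomedullin receptor. Ramp2 had 377 in the stimulated and 619 in the control limb, 1.64-fold lower. Calcrl had 16.1, below the floor, against 31.4 in the control limb, at least 1.59-fold lower, but its other probe set went the other way, with 25.8 against 23.9, a log2 ratio of 0.12. No direction can be given for Calcrl.

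S1pr1, the receptor for sphingosine 1-phosphate that stabilises junctions, had 270 in the stimulated and 385 in the control limb, 1.43-fold lower. Rasip1, needed for the formation of vessel lumens, had 62.3 against 77.6 in the control limb, 1.25-fold lower. Arhgef15, an exchange factor for small GTPases, had 18.1 against 24.96 in the control limb, at least 1.26-fold lower and close to the floor in both. Cyyr1, a membrane protein, had 73.1 against 86.2 in the control limb, 1.18-fold lower. S1pr1 stood beyond the probe set SD, Rasip1 and Arhgef15 lay just beyond it and Cyyr1 within it.

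Among the transcription factors, the SOXF genes and the ETS genes had different values. The 3 SOXF genes, which act together in arterial and lymphatic development, were all at least 1.5-fold lower, against 6.94% of all genes. Sox18 (Entrez gene 311723) had 73.2 in the stimulated and 213 in the control limb, 2.91-fold lower, with 26 of the 9956 genes at a lower ratio. Sox7 had 63.1 against 107 in the control limb, 1.69-fold lower. Sox17 had 85.4 against 137 in the control limb, a log2 ratio of -0.68, with 2 further probe sets below the floor on both arrays.

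The ETS factors that maintain endothelial identity lay within the probe set SD by their representing probe sets, though a second Erg probe set lay beyond it. Erg had 44.2 in the stimulated and 48.0 in the control limb, 1.09-fold lower, with a second probe set at 0.43 as a bound, since its control signal lay below the floor. All 4 probe sets of Fli1 reached the floor on both arrays, and their log2 ratios ran from -0.17 to 0.0022. Ets1 had 92.2 against 111 in the control limb, a log2 ratio of -0.26. Tal1, a helix-loop-helix factor of blood and endothelial progenitors, had 25.8 against 36.2 in the control limb, 1.40-fold lower. Fli1 and Ets1 are also expressed by leukocytes, whose markers were higher in the same sample, and their part in these values was not tested.

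The gene linked to lymphatic vessels, Lyve1, a hyaluronan receptor, had 778 in the stimulated and 865 in the control limb, 1.11-fold lower, with a second probe set at -0.11. Of 9 markers of lymphatic endothelium, Lyve1 included, 6 were measured, with a median of -0.11. Of these, 4 lay below 0, against 47.7% of all genes, and 0 lay beyond 2-fold, against 1.43% in each direction. Stab1, also made by macrophages, was 1.51-fold higher (84.4 against 55.9 in the control limb). Prox1 and Flt4, which define the lymphatic lineage, were below the floor on both arrays. Lymphatic endothelium itself was therefore measured poorly.

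Where a gene had several measured probe sets, they bore unevenly on its direction. Of 11 such genes, all probe sets lay below 0 for 5 (Icam2, Egfl7, Aqp1, Lyve1 and Thbd), and they lay on both sides of 0 for 6 (Ptprb, Erg, Fli1, Cav1, Calcrl and Tfpi). A probe set each of Icam2, Thbd and Calcrl reached the floor only in the control limb and could only come out lower. An Erg probe set reached it only in the stimulated limb and could only come out higher. None of these 11 is among the genes at least 2-fold lower, which each rest on 1 measured probe set. Over all 53 measured probe sets of the set, 45 lay below 0 and 8 above, with a median of -0.45. Of the 13384 measured probe sets with a single gene symbol, 52.2% lay below 0. The 45 include probe sets of Selp, Sele, Calcrl, Arhgef15, Icam2 and Thbd that could only come out lower, and the 8 include that of Erg.

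A list of 83 other genes enriched in endothelium was set beside the 38. It was chosen with earlier results of these data known, and 71 of its genes were measured. Their median was -0.38, and 55 lay below 0 and 16 above, against 47.7% and 52.3% of all genes. At 1.5-fold, 25 were lower and 6 higher, against 6.94% and 6.59% of all genes. At 2-fold, 10 were lower and 2 higher, against 1.43% in each direction. The 4 with the largest ratios in size were Fabp5, Slco2a1, Tm4sf1 and Ackr1. Fabp5, a fatty acid carrier of many cell types, macrophages among them, had 1127 in the stimulated and 315 in the control limb, 3.58-fold higher. The prostaglandin transporter Slco2a1 was at least 2.96-fold lower, the membrane protein Tm4sf1 2.63-fold lower and Ackr1, the chemokine receptor of small veins, 2.47-fold lower. Of the VEGF receptors in that list, Kdr was 2.06-fold lower and Flt1 at least 2.22-fold. The difference between the 2 sets of genes was not tested.

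**Figure D3:**
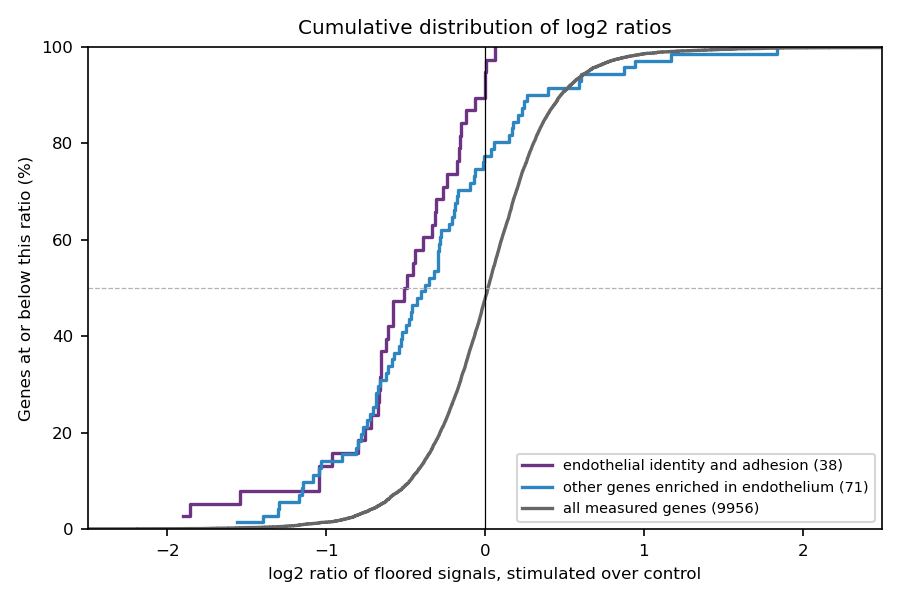
Share of genes (%) at or below each log2 ratio of stimulated over control, for the 38 endothelial genes (purple), 71 other genes enriched in endothelium (blue) and all 9956 measured genes (grey). The purple and blue curves lie left of the grey one over most of their course, with medians of -0.50, -0.38 and 0.019, while the upper end of the blue curve meets the grey curve, since 6 of its genes were at least 1.5-fold higher. These values follow the deposited scaling, and with scaling to the spike-ins the medians were -0.094, 0.0041 and 0.39.

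The list of leukocyte counter-receptors of the adhesion ligands was near the background as a whole. It is not specific to leukocytes, since it shares Podxl, F11r and Jam2 with the list of other genes enriched in endothelium. Of 25 counter-receptors and their modifying enzymes, 17 were measured, of which 11 lay above 0, against 52.3% of all genes, and 10 lay within the probe set SD. Their median was 0.15, or 0.045 over genes with both arrays above the floor and -0.018 with the floor at the 75th percentile. St3gal4, a sialyltransferase that builds selectin ligands, had 46.4 in the stimulated limb against 17.8 in the control limb, which is below the floor, at least 2.35-fold higher. Cd44, which binds E-selectin among other ligands, was 1.91-fold higher and Itgb2, the integrin chain that binds Icam1, 1.86-fold higher. Podxl, a sialomucin that endothelium itself carries, was 1.87-fold lower. Of the alpha chains that pair with Itgb2, Itgam had 44.6 in the stimulated and 40.1 in the control limb, within the probe set SD, and Itgal was below the floor on both arrays.

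Genes of the NF-kappaB pathway and of cytokine-induced activation had a median of -0.34 over 19 of 27 genes measured. Of these, 13 lay below 0 and 6 above, against 47.7% and 52.3% of all genes. The list median was -0.23 over genes that reached the floor on both arrays. Il6 and Il1b reached it only in the control limb, so their ratios could only come out lower. Il6 had 7.003 in the stimulated limb, below the floor, against 94.3 in the control limb, at least 4.77-fold lower. Il1b was at least 1.89-fold lower and Ccl2, a chemokine for monocytes, 1.78-fold lower (294 against 522 in the control limb). The subunit gene Nfkb2 was 1.96-fold higher, and Tnf lay below the floor on both arrays. Genes of protein C and coagulation control outside the set had a median of -0.021 over 15 of 21 genes measured. Of these, 8 lay below 0 and 7 above, against 47.7% and 52.3% of all genes. The tissue factor gene F3 was 1.88-fold lower and Entpd1, which degrades ADP at the vessel wall, at least 1.62-fold lower, while the annexin Anxa5 was 1.79-fold and S100a10, the partner of annexin A2, 1.70-fold higher. That list as a whole did not follow Procr and Thbd.

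Markers of other cells moved as well. Counts for the cell type lists that follow stand against 47.7% of all genes below 0 and 52.3% above. Monocyte and macrophage markers were higher, with 17 of 17 measured genes above 0, a median of 0.64 and a summed signal of 12163 in the stimulated against 7095 in the control limb. The 38 endothelial genes summed to 5642 against 7775 in the control limb, a ratio of 0.73. Pericyte and smooth muscle markers, cells that wrap the same vessels, had a median of -0.40 over 17 of 18 genes, with 14 below 0, and summed to 9288 against 11245 in the control limb. Most of that sum was desmin, Des, which muscle fibres express too, with 7316 in the stimulated and 8360 in the control limb, and without it the list summed to 1972 against 2886 in the control limb. Acta2, the actin of vascular smooth muscle, was 2.28-fold lower, Actg2 1.91-fold, Cox4i2, a pericyte marker, 1.82-fold and the channel subunit Abcc9 1.67-fold lower, and Myocd was below the floor on both arrays. Fibroblast markers had a median of -0.26 over 13 of 16 genes, with 9 below 0.

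Muscle fibre markers had a median of -0.42 over 15 of 16 genes, with 13 below 0, and summed to 123549 against 160402 in the control limb. That median was -0.031 with quantile normalization of the arrays. Adipocyte markers had a median of -1.54 over 7 of 9 genes, with 6 below 0 and a summed signal of 1364 against 3061 in the control limb, and Lep was below the floor on both arrays. Over the adipocyte genes that reached the floor on both arrays, the median was -0.29. Platelet markers were measured for 3 of 13 genes, of which Pf4 was 1.66-fold higher, Itga2b at least 1.28-fold lower and Treml1 at least 1.45-fold lower. Ppbp, Gp9, Gp5, Nfe2, Gata1 and Clec1b were below the floor on both arrays. The part of these other cells in the endothelial values was not tested.

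**Figure D4:**
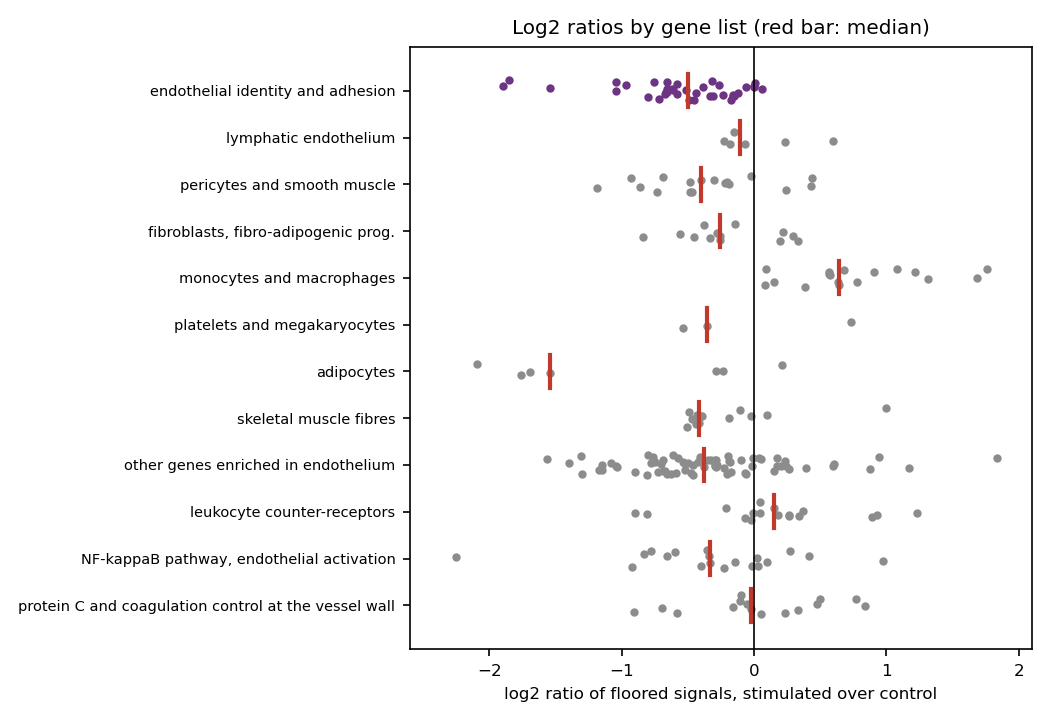
Log2 ratio of stimulated over control for each measured gene of the endothelial set (purple) and of 11 other gene lists (grey), with a red bar at each list's median. The bars of the endothelial set (-0.50), pericytes and smooth muscle (-0.40) and muscle fibres (-0.42) lie left of 0 and that of monocytes and macrophages (0.64) right of it, and the adipocyte list has 4 of its 7 genes beyond 2-fold. With scaling to the spike-ins these 4 bars lie at -0.094, -0.088, -0.033 and 1.03, where the median of all genes is 0.39.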

How the data were processed

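The 2 samples were hybridised to 1 Affymetrix array each after RNeasy purification and one-cycle biotin labelling, per the labels' protocols. The deposited values are linear signal intensities that the authors computed using MAS5 (per the submitters' processing notes), of unstated version and scaling target. With the top and bottom 2% removed, both arrays had a mean of 76.5. Of 31099 probe sets, 57 manufacturer's controls were left out. Of the rest, 20826 had 1 gene symbol in the platform annotation, 436 had several and 9780 had none. RefSeq (GRCr8) held the gene identifiers of 20758 of the first kind, changed 0 symbols and gave the promoter windows.

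Signals under the median of both arrays were raised to it, and log2 ratios were formed as stimulated over control. Probe sets with at least 1 array at the floor were called measured, and the one with the highest mean floored log2 signal represented its gene. A fold with 1 array below the floor is a lower bound, written "at least". With 1 array per group no test was run, the number of arrays limits the precision of every value, and thresholds were 2-fold and 1.5-fold. Every gene of the set was named, with up to 4 genes of each other list by size of ratio. Kdr, Flt1, Des, Itgam, Tnf and other genes below the floor were named after their values were seen. The genes, the 11 other lists (lymphatic endothelium, pericytes and smooth muscle, fibroblasts, macrophages, platelets, adipocytes, muscle fibres, other endothelial genes, leukocyte counter-receptors, NF-kappaB, protein C and coagulation) and the promoter motifs were chosen with earlier results of these data known. The counting was tested on simulated data. In all, 9 other settings, and 1 added after the values were seen, changed floor, scaling, probe set choice and filter. Analyses used Python 3.11.15, numpy 2.4.6, pandas 2.3.3, scipy 1.17.1 and matplotlib 3.10.9.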

Additional observations from a re-analysis of the deposited data

How the results depend on the processing

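No paired analysis was possible because each group has 1 array and the result comes from no test. The median of the 38 endothelial genes minus that of all genes stayed between -0.54 and -0.48 under 9 other settings and 1 added after the data were seen, which picked each gene's probe set by its unfloored signal. The counts of genes at least 2-fold lower (5) or higher (0) lay between 4 and 6 or at 0 outside spike-in scaling. For a floor at the 75th percentile, 26 of the genes were measured, 23 lay below 0 and 10 were at least 1.5-fold lower. Of all genes measured at that floor, 44.0% lay below 0 and 3.42% were at least 1.5-fold lower. With scaling to the hybridisation spike-ins, not taken relative to the median gene, 23 genes lay below 0 and the median was -0.094. By that scaling 3 were at least 2-fold and 5 at least 1.5-fold lower. Over all genes it put 15.1% below 0 and 1.81% at least 1.5-fold lower. The list medians under that scaling were 0.27 for lymphatic endothelium, -0.088 for pericytes and smooth muscle, 0.12 for fibroblasts, 1.03 for macrophages, -0.033 for muscle fibres, 0.0041 for other endothelial genes, 0.54 for counter-receptors, 0.047 for NF-kappaB and 0.36 for coagulation control, and the median of all genes was 0.39. The muscle fibre median was -0.031 with quantile normalization. The adipocyte median was -1.23 with no floor, -1.15 with the median over probe sets and -0.29 with both arrays above the floor. The platelet median, over few genes, was 0.19 for a floor at the 25th percentile, 0.73 for one at the 75th or with both arrays above the floor, and 0.074 with no floor. The cause of these moves was not tested.

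Of single genes, Selp and Sele gave log2 ratios of -2.09 and -2.40 for a 25th percentile floor. Clec14a lay at -0.024 for a 75th percentile floor, as a bound, and at -0.66 with no floor. Calcrl lay at 0.12 with the 25th percentile floor, with no floor, with both arrays above the floor and with the added alternative. It lay at 0.24 with quantile normalization, at 0.50 with scaling to the spike-ins and at -0.27 with the median over probe sets. The direction of Calcrl depends on these choices. Ptprb was at -0.34 and Icam2 at -0.54 with the median over probe sets. Over all genes, the count at least 2-fold higher and lower was 474 and 596 for the 25th percentile floor and 52 and 49 at the 75th. With no floor it was 1129 and 1279, so these counts depend on the floor.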
